A study of Mus musculus with 12 samples.

Results

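The genes described here encode the hypoxia-inducible factors (HIFs) and the enzymes that control them. They were taken by symbol from a list of 9: the alpha subunits Epas1 (HIF-2 alpha), Hif1a and Hif3a, the shared partner Arnt, the prolyl hydroxylases Egln1, Egln2 and Egln3, the asparaginyl hydroxylase Hif1an, and Vhl. Of the 12774 symbols in the deposited table, 8 are of this list, and all 8 passed the filter on low values (at least 1 RPM in at least 3 libraries). Hif3a was not analysed here.

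The cells were C17.2, a line of mouse neural progenitors, and polyA RNA was read as sequence tags in 12 libraries. The C17.2a line carried a stably expressed, tagged thyroid hormone receptor alpha, and C17.2b the tagged receptor beta, so every library comes from cells with an added receptor. Whether a line was 1 clone or a pool is not given in the sources used here. Each line was held for 24 h without serum, and was then left untreated or given the thyroid hormone T3 at 1e-07 M for 6, 12 or 24 h. Each combination of line, treatment and time has 1 library, so no level below has a replicate, and each T3 library was paired with its untreated counterpart, which gives 6 pairs as the only repeats.

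In cells with enough oxygen, the prolyl hydroxylases modify the HIF alpha subunits, the ubiquitin ligase subunit encoded by Vhl recognises the modified protein, and the proteasome destroys it. Hif1an adds a hydroxyl group elsewhere in the alpha subunit, which weakens its contact with coactivators. When oxygen is scarce the alpha subunits persist, pair with Arnt and switch on genes for glucose use, vessel growth and red cell production. This control acts on protein, which was not measured here. Egln1 and Egln3 are themselves known targets of HIF, so that the pathway feeds back on itself, and Epas1 is best known from endothelium and from the cells that make erythropoietin.

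The promoters of 3 of these genes are shown as examples. Egln1 and Hif1a were higher with T3, and Egln3 was higher late in culture, as were Hif1an and Epas1, which are not printed. Sequences are from RefSeq (GRCm38.p6), where promoters were matched by symbol for 8 of the 9 genes and not for Epas1. This build differs from mm9, the build named in the submitters' processing notes, and these coordinates were not joined with the expression data. Each line gives the 250 bases before the start listed for the gene, read 5′ to 3′ on the strand of the gene. Capitals mark the core of the hypoxia response element to which HIF binds (ACGTG or GCGTG) and the half-site AGGTCA of nuclear receptors, each searched on both strands.
Egln1 (chr8:124949255-124949504, minus strand): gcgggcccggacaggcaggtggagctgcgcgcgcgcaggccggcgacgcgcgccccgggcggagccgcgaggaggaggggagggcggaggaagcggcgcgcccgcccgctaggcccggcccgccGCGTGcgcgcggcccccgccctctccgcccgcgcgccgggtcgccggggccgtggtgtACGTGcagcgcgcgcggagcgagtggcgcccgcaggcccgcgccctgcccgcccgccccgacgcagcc
Hif1a (chr12:73907617-73907866, plus strand): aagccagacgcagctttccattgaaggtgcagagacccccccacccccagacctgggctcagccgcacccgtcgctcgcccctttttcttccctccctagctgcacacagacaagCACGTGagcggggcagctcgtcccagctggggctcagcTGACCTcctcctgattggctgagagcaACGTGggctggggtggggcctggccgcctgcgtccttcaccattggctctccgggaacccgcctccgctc
Egln3 (chr12:54203875-54204124, minus strand): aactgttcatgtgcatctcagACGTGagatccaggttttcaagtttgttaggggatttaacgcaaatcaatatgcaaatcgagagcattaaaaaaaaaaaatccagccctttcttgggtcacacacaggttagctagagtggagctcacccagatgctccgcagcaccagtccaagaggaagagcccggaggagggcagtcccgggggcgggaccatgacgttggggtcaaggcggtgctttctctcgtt

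In Egln1 the cores lie 126 to 122 and 68 to 64 bases before the start. In Hif1a a palindrome is counted on both strands (135 to 131 and 134 to 130), another core lies 70 to 66 bases before the start, and the half-site lies at 97 to 92 on the other strand, printed as TGACCT. Egln3 has 1 core, 229 to 225 bases before the start. Of the 9 promoter windows of these genes, Egln2 having a pair of starts, 7 held a core, and those of Vhl and Hif1an did not. The window of Hif1an held 1 half-site. Either core is found in 38.6% of all 32851 windows of this length, ACGTG in 16.6%, GCGTG in 28.2% and AGGTCA in 14% of them. A direct repeat of AGGTCA with any 4 bases between its copies, a classic site of thyroid hormone receptors, is found in 0.0152% of windows and in none of these 9. A match describes letters and no more.

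RPM, the unit of every level here, gives a gene's tags per 1e+06 tags of its library. The unit was read from the values. The table is not one of whole counts, but the step between low values puts the depth at 7.1e+06 to 1.9e+07 tags, so that a floor of 3 tags lies at 0.158 to 0.422 RPM. The lowest value of any of the 8 genes is 1.89 RPM, or about 36 implied tags, and the smallest implied number of tags is 32. The C17.2a T3 24 h library has the most symbols without a value, 875 against 479 to 812 in the other 11. Thra, the gene of the alpha receptor, is at 0.12 RPM in it, under that library's floor of 3 tags (0.358 RPM). Thra was low in all 12 libraries, at 2.04 to 5.83 RPM untreated and at most 4.63 RPM with T3. The implied depth of the C17.2a T3 24 h library, 8.38e+06 tags, lies within the range of the others. Results that rest on its pair are therefore also given without it. Of 12 progenitor markers listed, 9 were measured and 8 passed the filter, among them Nes (70.2 to 642 RPM), Sox2 and Vim. Pax6, Hes5 and Sox1 were not measured, Slc1a3 stayed under 1 RPM, and Sox9 (2.33 to 7.57 RPM) and Msi1 (0 to 4.35 RPM) were low. Fibroblast and pericyte markers (4 of 6 measured) were also abundant, with Col1a1 at 747 to 5353 RPM. Some genes of other lists were well measured too. These were Sox10 (oligodendrocyte, 135 to 759 RPM), Tubb3 (neuron, 44.5 to 576 RPM) and Gja1 (astrocyte, 122 to 221 RPM). In the same lists Mbp (0.54 to 2.88 RPM), Snap25 (0.28 to 1.57 RPM) and Gfap (0.60 to 3.92 RPM) were low. Of 8 endothelial markers only Vwf was measured, at 0 to 0.62 RPM.

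T3 raised the transcript of Epas1 in both lines and at all 3 times. In C17.2a it stood at 3.32, 2.84 and 8.47 RPM without T3 at 6, 12 and 24 h, and at 55.1, 60.8 and 172 RPM with T3. In C17.2b the untreated values were 1.89, 3.95 and 7.73 RPM and the T3 values 48.4, 102 and 193 RPM. The lowest T3 library therefore lay well above the highest untreated one, and the groups did not overlap. The ratio of RPM in a pair was 16.6, 21.4 and 20.3 in C17.2a and 25.6, 25.9 and 25.0 in C17.2b, in order of time. Over the 6 pairs the log2 fold change was 4.14 (standard error (SE) 0.13, adjusted p = 1.34e-06 in limma), which is the largest of the 10577 genes tested. Log2 fold changes here refer to log2(RPM + 1), which understates the change of a gene as low as Epas1 without hormone. In such bulk samples, more cells with a transcript and more transcript per cell cannot be told apart.

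**Figure D1:**
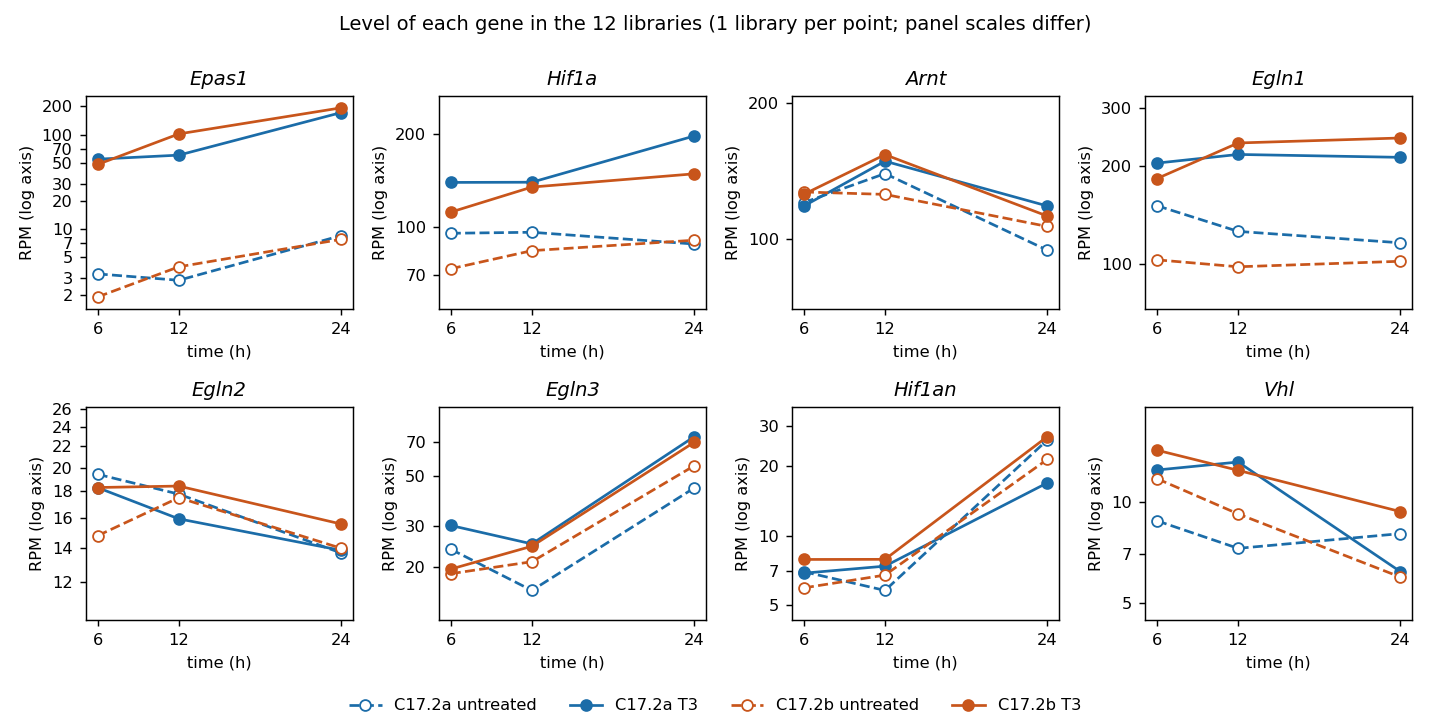
Level of each of the 8 genes in RPM (log axis, scale differs by panel) against time in hours. Each point is 1 library, with C17.2a in blue, C17.2b in orange, T3 as filled points and untreated as open points. The T3 libraries lie above all untreated ones for Epas1, Hif1a and Egln1, while Egln3 and Hif1an are highest at 24 h with and without T3.

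Hif1a, the alpha subunit expressed in most cells, also rose, by far less. In C17.2a it went from 95.4, 96.1 and 88.1 RPM without T3 to 139, 139 and 196 RPM with T3 at 6, 12 and 24 h. In C17.2b it went from 73.3, 83.9 and 90.6 RPM to 112, 134 and 148 RPM. Again no T3 library fell within the range of the untreated ones. The shared log2 fold change was 0.70 (SE 0.10, adjusted p = 0.00467 in limma). RPM ratios were 1.45 to 1.64 in 5 pairs and 2.23 in the C17.2a 24 h pair, and without that pair the shared value was 0.61 (adjusted p = 0.000224 in limma). That fit called 1554 genes in all, in place of 682 with every pair. A long noncoding RNA gene, Gm15283, overlaps Hif1a in RefSeq, and the strand of the tags is not given, so tags from it cannot be told apart.

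Arnt, the constitutive partner of the alpha subunits, gave no call. Its levels were 94.5 to 139 RPM untreated, with a median of 123, and 112 to 154 RPM with T3, with a median of 122. The ranges overlap. Its shared log2 fold change was 0.12 (SE 0.09, adjusted p = 0.525 in limma), with 4 pairs higher and 2 lower.

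Among the prolyl hydroxylases, Egln1 (PHD2), regarded as the main brake on HIF in most tissues, rose. In C17.2a its untreated levels were 151, 126 and 116 RPM and its T3 levels 204, 217 and 212 RPM at 6, 12 and 24 h. In C17.2b they were 103, 97.9 and 102 RPM without and 183, 235 and 243 RPM with T3. The groups did not overlap here either, and the shared log2 fold change was 0.90 (SE 0.12, adjusted p = 0.00308 in limma). The noncoding gene Gm46060 overlaps Egln1 in RefSeq. Egln2 (PHD1) stayed between 13.7 and 19.4 RPM in all 12 libraries, at 0.05 (SE 0.11, adjusted p = 0.87 in limma).

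Egln3 (PHD3), which in many cells is the hydroxylase most strongly induced by hypoxia, was above its untreated partner in 6 of 6 pairs without passing the threshold. Without T3 it stood at 23.9, 15.8 and 44.1 RPM in C17.2a and at 18.7, 21.1 and 55.1 RPM in C17.2b. With T3 it stood at 30.3, 25.2 and 73.7 RPM in C17.2a and at 19.6, 24.6 and 69.7 RPM in C17.2b. Its log2 ratios were 0.33 to 0.73 in C17.2a and 0.06 to 0.33 in C17.2b, and the shared value was 0.39 (SE 0.12, adjusted p = 0.102 in limma). The T3 and untreated ranges overlap, and the highest values of both are at 24 h.

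Hif1an (FIH), the asparaginyl hydroxylase, had a shared log2 fold change of 0.09 (SE 0.15, adjusted p = 0.811 in limma). In C17.2a it was at 6.96, 5.77 and 26.0 RPM untreated and at 6.86, 7.36 and 16.9 RPM with T3, and in C17.2b at 5.92, 6.73 and 21.4 RPM untreated and at 7.87, 7.88 and 26.9 RPM with T3. The C17.2a 24 h pair, at -0.59, is the lowest of its 6 log2 ratios, and the others lie between -0.02 and 0.36. Without that pair the shared value was 0.23, the highest over omissions of a pair (0.04 to 0.23). Vhl shows the same exception. It was at 8.81, 7.28 and 8.06 RPM in untreated C17.2a and at 12.5, 13.2 and 6.20 RPM with T3, and it went from 11.8, 9.24 and 5.97 RPM to 14.4, 12.5 and 9.39 RPM in C17.2b. Of its 6 log2 ratios, 5 lie between 0.26 and 0.78, and that of C17.2a at 24 h is -0.33. The shared value was 0.36 (SE 0.16, adjusted p = 0.271 in limma), and without that pair it was 0.50 (SE 0.11, adjusted p = 0.0108 in limma). The genes called in all then went from 682 to 1554.

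In all, 3 of the 8 genes were called higher with T3 and 0 lower, in a fit in which 4.09% of all genes tested were called higher and 2.35% lower. The median log2 fold change was 0.37 over the 8 genes and -0.01 over all genes. In the same 3 genes the lowest T3 library lay above the highest untreated one, which held for 1.47% of all genes tested, and 4 of the 8 were higher in all 6 pairs, against 8.06% of all genes. The list was drawn up with these results known, so neither count is independent evidence. Progenitor markers had a summed level of 2330 to 5780 RPM untreated and 1360 to 3070 RPM with T3. Most of that sum is Vim, at 1928 to 4941 RPM untreated and 1112 to 2619 RPM with T3. Notch1 was lower with T3 without overlap (43.5 to 74.5 RPM untreated, 20.3 to 40.8 RPM with T3). The ranges of Vim, Nes, Sox2, Hes1, Sox9, Fabp7 and Msi1 overlapped. The part of progenitor markers in the differences of the 8 genes was not tested.

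**Figure D2:**
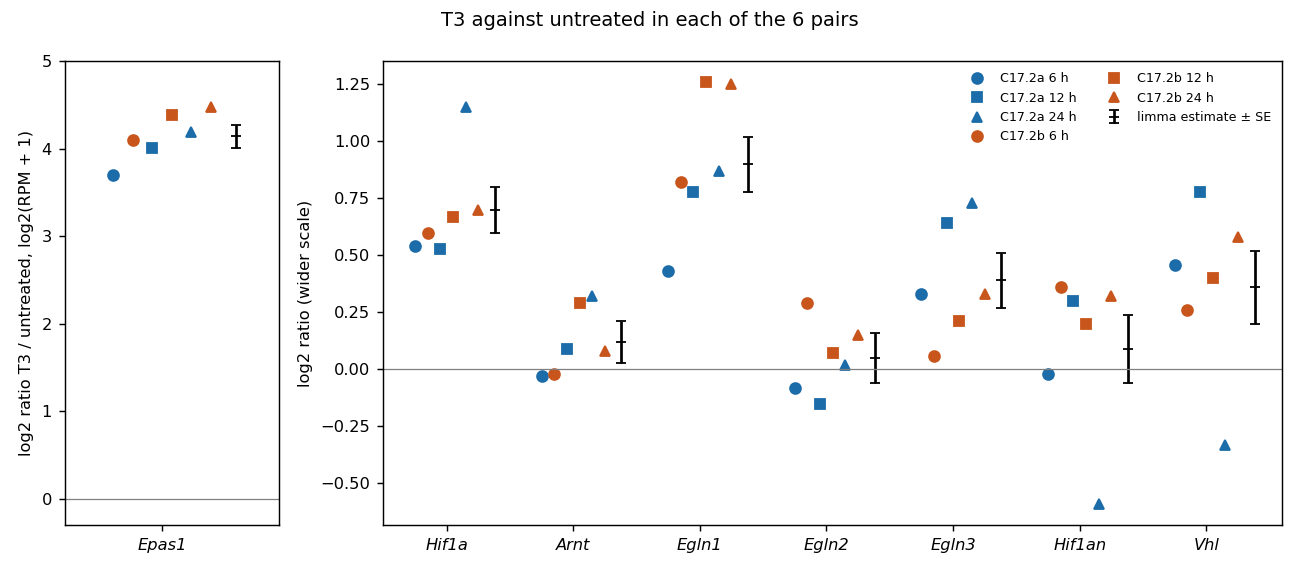
Log2 ratio of T3 to untreated on log2(RPM + 1) for the 8 genes (Epas1 on a scale of its own at the left). Colours give the line, symbols the time, and the black bar the limma estimate ± SE over the 6 pairs. All 6 ratios of Epas1 lie between 3.70 and 4.48, while Hif1an and Vhl each have 1 pair, that of C17.2a at 24 h, well below the others.

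Taken by line, Epas1 rose by 3.97 (SE 0.17, adjusted p = 8.08e-05 in limma, n = 3 pairs) in C17.2a, with the alpha receptor, and by 4.32 (SE 0.17, adjusted p = 4.06e-05) in C17.2b, with the beta receptor. It was the only one of the 8 called in C17.2a, where 0.908% of all genes were called higher and 0.463% lower. Hif1a and Egln1 had values of 0.74 (SE 0.15) and 0.69 (SE 0.15) there, with adjusted p of 0.0662 and 0.0691 in limma. Without the C17.2a 24 h pair both passed, at lower values of 0.54 (adjusted p = 0.0274) and 0.61 (adjusted p = 0.0422). That fit called 462 genes in C17.2a in place of 145. In C17.2b, where 2.25% of genes were called higher and 0.86% lower, Egln1 rose by 1.11 (SE 0.15, adjusted p = 0.00653 in limma), and Hif1a at 0.66 (SE 0.15) had an adjusted p of 0.0614. Leaving out that line's 12 h or 24 h pair ended the call of Egln1 (adjusted p = 0.108 and 0.0808 in limma), at a value of 1.04 in both cases. Hif1a passed in C17.2b without the C17.2a 24 h pair (adjusted p = 0.00104) and from this line's libraries alone (0.00247). Those fits called 1178 and 1086 genes in C17.2b, in place of 329.

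None of the 8 genes differed between the lines in its response by a test of the difference itself. C17.2b minus C17.2a was 0.35 (SE 0.24) for Epas1, 0.42 (SE 0.21) for Egln1, -0.36 (SE 0.21) for Egln3 and 0.39 (SE 0.29) for Hif1an, each with an adjusted p of 0.722 in limma. For Hif1a it was -0.08 (SE 0.21, adjusted p = 0.892 in limma). This test called 0 of 10577 genes, with 583 (5.51%) at an unadjusted p under 0.05. Egln1 and Egln3 point in opposite directions: all 3 Egln1 ratios of C17.2b are above the C17.2a ratio of the same time, and all 3 Egln3 ratios are below it. All 3 ratios of Epas1 and of Egln2 are also above it. The median of all genes in this contrast was 0.12. With each library set by its median gene (median-ratio scaling), the difference was 0.23 for Epas1, 0.27 for Egln1, -0.5 for Egln3 and 0.26 for Hif1an.

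By time, with 2 pairs each, Epas1 rose by 3.90 at 6 h, 4.2 at 12 h and 4.33 at 24 h (SE 0.22 each, adjusted p = 0.00232, 0.00161 and 0.00202 in limma). It was the only one of the 8 called at each time, when 0.113%, 0.359% and 0.681% of all genes were called higher and 0.0473%, 0.132% and 0.378% lower. The value stayed large when a pair was left out, but some calls were lost. Without the C17.2a or the C17.2b 6 h pair the 6 h value was 4.1 or 3.7 (adjusted p = 0.362 and 0.432 in limma). Without the C17.2a or the C17.2b 12 h pair the 12 h value was 4.38 or 4.01 (adjusted p = 0.104 and 0.18), and without the C17.2b 6 h pair the 24 h value was 4.33 (adjusted p = 0.0505). With such a pair of its own time left out, 1 pair is assumed to vary like the others. Egln1 had values of 0.63, 1.02 and 1.06 (SE 0.20 each) and Hif1a of 0.57, 0.60 and 0.93 (SE 0.17 each) in order of time, with an adjusted p of 0.0671 to 0.393 in limma. Without either of the 24 h pairs Egln1 and Hif1a passed at 6 and 12 h, but so did many more genes in all. Without the C17.2a 24 h pair, 680 genes were called at 6 h and 690 at 12 h, in place of 17 and 52. Without the C17.2b 24 h pair these counts were 682 and 690. Such fits leave 1 pair at 24 h, where without the C17.2b pair Egln3 was at 0.73. The difference between 24 h and 6 h was 0.44 (SE 0.31) for Epas1, 0.43 (SE 0.28) for Egln1 and 0.36 (SE 0.24) for Hif1a, with an adjusted p of 0.726 in limma for each. That test called 0 of 10577 genes, with 593 (5.61%) at an unadjusted p under 0.05.

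Without T3, the levels of 3 genes changed with time in serum-free culture. Between 6 and 24 h Hif1an rose by 1.73 (SE 0.22, adjusted p = 0.000173 in limma), Epas1 by 1.36 (SE 0.27, adjusted p = 0.00206) and Egln3 by 1.18 (SE 0.21, adjusted p = 0.000983), with 2 libraries per time and line as a block. The 2 libraries of 24 h were the highest of the 6 untreated ones for each of these 3 genes. Counts of calls say little here, because 43% of all genes tested were called higher at 24 h and 13.1% lower, and the median of all genes was 0.40. Median-ratio scaling, which sets each library by its median gene, moves that median to -0.02. On that scale the rises were 1.29 (SE 0.20), 0.97 (SE 0.26) and 0.72 (SE 0.20) and all 3 passed (adjusted p = 0.00109, 0.0133 and 0.0147 in limma).

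The other 5 genes lay below the median of all genes in this comparison. As deposited, Vhl was at -0.50 (SE 0.25), Arnt at -0.30 (SE 0.15), Egln2 at -0.28 (SE 0.20), Egln1 at -0.20 (SE 0.15) and Hif1a at 0.09 (SE 0.15), with adjusted p of 0.113 to 0.628 in limma. After median-ratio scaling Vhl (-0.91), Arnt (-0.77), Egln2 (-0.72) and Egln1 (-0.66) passed as lower (adjusted p = 0.00435 to 0.0125), and Hif1a changed sign to -0.37 (adjusted p = 0.072). A large part of all genes tested was called on that scale too. These calls, like those of the 3 higher genes, therefore say little about the list. Vhl, Arnt, Egln2 and Egln1 were thus below 0 on both scales and passed on 1 of them, Hif1a changed sign, and Epas1, Egln3 and Hif1an passed as higher on both. The change with time was not tested with T3. There the same 3 genes were higher at 24 h than at 6 h in both lines, and so were Hif1a and Egln1. Epas1 was at 55.1 RPM at 6 h and 172 RPM at 24 h in C17.2a, and at 48.4 and 193 RPM in C17.2b. Egln3 was at 30.3 and 73.7 RPM in C17.2a and at 19.6 and 69.7 RPM in C17.2b, and Hif1an at 6.86 and 16.9 RPM and at 7.87 and 26.9 RPM. Hif1a was at 139 and 196 RPM in C17.2a and at 112 and 148 RPM in C17.2b. Egln1 was at 204 and 212 RPM and at 183 and 243 RPM. These levels are as deposited. Median-ratio scaling would divide those of C17.2a and C17.2b by 0.911 and 0.915 at 6 h and by 1.14 and 1.29 at 24 h.

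**Figure D3:**
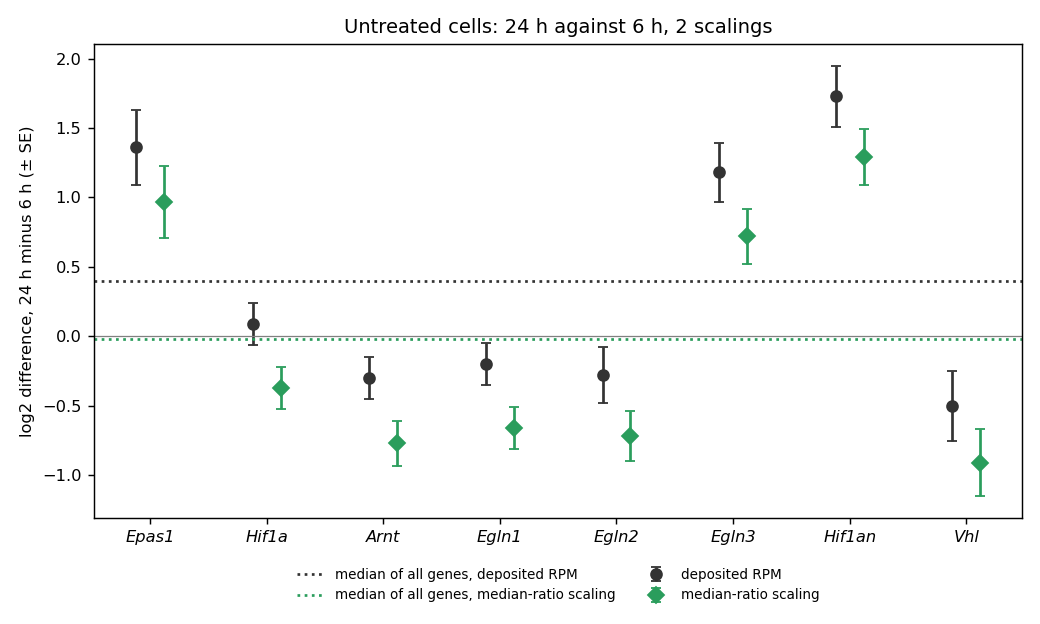
Log2 difference between untreated cells at 24 h and at 6 h (± SE, limma) for the 8 genes, from the deposited RPM (black) and after median-ratio scaling (green). Dotted lines give the median of all genes, 0.40 and -0.02. Epas1, Egln3 and Hif1an lie above 0 on both scales and the other 5 lie below the median of all genes on both.

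Between the untreated lines 0 of the 8 genes were called, where 2.93% of all genes were higher in C17.2b and 5.92% lower. At an unadjusted p under 0.05, 1 of the 8 passed, where 22.8% of all genes did. This was Egln1, at -0.36 (SE 0.12, adjusted p = 0.107 in limma), with 103, 97.9 and 102 RPM in C17.2b and 151, 126 and 116 RPM in C17.2a. Epas1 differed by -0.11 (SE 0.22, adjusted p = 0.826 in limma) and Hif1a by -0.18 (SE 0.13, adjusted p = 0.459). With T3 the Egln1 levels of the lines cross, with C17.2b lower at 6 h and higher at 12 and 24 h.

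Genes that act beside the HIF subunits showed little of this. Of 27 partners, coactivators and turnover genes, all tested, 0 passed the threshold in either direction for the shared response. In that fit 4.09% of all genes were called higher and 2.35% lower. The median of the 27 was -0.01, equal to that of all genes. The smallest p belonged to the transmembrane prolyl hydroxylase P4htm, at -0.45 (SE 0.14, adjusted p = 0.104 in limma), which lies at only 0.48 to 1.90 RPM. Next came the scaffold Cul2 of the Vhl ligase, at 0.19 (SE 0.08, adjusted p = 0.272), the SUMO protease Senp1, at 0.29 (SE 0.13, adjusted p = 0.282), and Arnt2, a relative of Arnt, at -0.41 (SE 0.21, adjusted p = 0.352). Without the C17.2a 24 h pair, or with no filter on low values, 1 of the 27 list genes passed as lower.

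Of 17 other factors listed with the same bHLH and PAS domains, 12 were measured and 10 tested. Of these 0 rose and 1 fell, with a median of -0.04, where 4.09% of all genes were called higher and 2.35% lower. The 1 that fell was Ahr, the aryl hydrocarbon receptor, which also pairs with Arnt. It lay at 43.5 to 60.2 RPM without T3 and at 27.3 to 38.4 RPM with it, with no overlap. The change was -0.69 (SE 0.11, adjusted p = 0.00809 in limma). How many of all genes were lower with no overlap was not counted. Npas3 was at -0.44 (SE 0.15, adjusted p = 0.143), Per3 at 0.60 (SE 0.26, adjusted p = 0.265) and Arntl at -0.44 (SE 0.19, adjusted p = 0.272). Without the C17.2a 24 h pair, when 1554 genes were called in all, 1 rose and 2 fell.

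Genes that HIFs are known to switch on did move with the hormone. Of 38 effectors listed, 36 were measured and 34 tested, and of these 16 rose and 0 fell, with a median of 0.60, where 4.09% of all genes were called higher and 2.35% lower. The 4 with the smallest p were Pfkfb3, a regulator of glycolysis, at 1.24 (SE 0.13), the mitophagy gene Bnip3 at 1.42 (SE 0.19), the oxidoreductase Ero1l at 1.53 (SE 0.21) and P4ha2, a collagen prolyl hydroxylase, at 0.87 (SE 0.12), with adjusted p of 0.000944 to 0.00418 in limma. In C17.2a 3 rose (0.908% of all genes called higher) and in C17.2b 16 (2.25%), and that difference in counts was not tested. Without the C17.2a 24 h pair 21 rose and 2 fell in the shared response, while the genes called in all went from 682 to 1554, and without the C17.2a 12 h or the C17.2b 12 h pair 11 rose. The list was drawn up with earlier results of these libraries known and is not independent evidence.

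**Figure D4:**
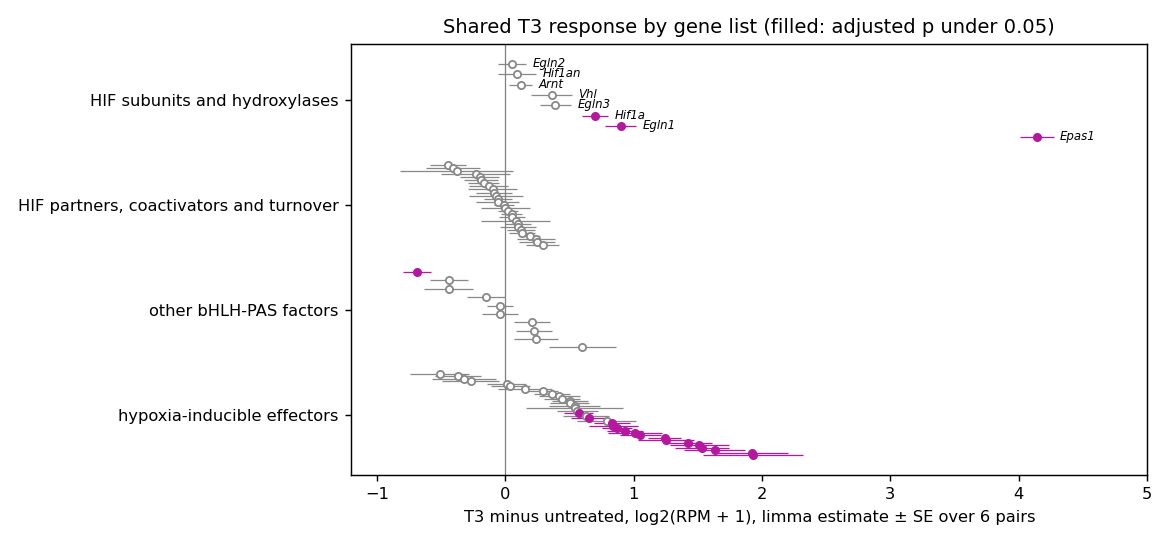
Shared T3 response on log2(RPM + 1) (limma estimate ± SE over 6 pairs) for the 8 genes, 27 partners and turnover genes, 10 bHLH-PAS relatives and 34 hypoxia-inducible effectors. Filled points have an adjusted p under 0.05. Epas1 at 4.14 stands beyond every other point, the partners centre on 0, and 16 effectors are called higher.

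The level patterns of the 8 genes over the 12 libraries can be set against that of Epas1. On log2(RPM + 1), Pearson's r with Epas1 was 0.92 for Hif1a, 0.91 for Egln1, 0.54 for Egln3, 0.35 for Hif1an, 0.24 for Vhl, 0.13 for Arnt and -0.06 for Egln2. These values describe 12 libraries that share treatment and time, and carry no p. Among the other genes tested, the 5 most like Epas1 were Socs2 (r = 0.985), Greb1 (0.97), Abhd15 (0.969), Cttnbp2nl (0.966) and Slc1a5 (0.964). Socs2, a suppressor of cytokine signalling, lay at 5.29 to 24.5 RPM without T3 and at 56.8 to 147 RPM with it. Slc1a5, a glutamine transporter, lay at 41.2 to 66.9 RPM without and at 85.4 to 129 RPM with T3. Those most like Egln1 were Hspa1b (0.974), a heat shock protein whose near-identical copy can share its tags, Higd1a (0.969), a mitochondrial protein known from hypoxia, and Rasal2 (0.966).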

How the data were processed

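The authors deposited 12 columns of RPM in 1 table. No header states the unit, which was inferred because every column adds up to 1e+06 within rounding. The submitters' processing notes give mm9 as a genome build. The aligner, how tags were assigned and any filters are not given in the sources used here. N/A was read as 0. In each library 88.6% to 93.1% of the values up to 1 RPM were whole multiples of its step (tolerance 0.0055 RPM). Whole tags could not be recovered on that basis, and a count test was left out. Floors cover counting error only.

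Values were tested as log2(RPM + 1) with limma 3.58.1 in R 4.3.3 (eBayes with a trend, Benjamini-Hochberg adjustment over all genes tested, threshold 0.05). Genes under 1 RPM in all but 2 or fewer libraries were dropped, and 10577 genes remained in the T3 fits and 10192 in the untreated fits. T3 fits held the pair as a block (5 residual degrees of freedom for the shared response, 4 by line, 3 by time), and untreated fits held line and time (2). Pairs follow the line and time in the labels, which do not state separate cultures, so p-values reflect spread between pairs that may be technical. The scripts were tested on simulated data. Genes and lists were chosen with earlier results of these data known. The 8 genes are always named, with up to 4 genes per list by smallest p and the genes most correlated with Epas1 (5) and Egln1 (3). The alternatives were median-ratio scaling, other filters and pseudocounts, voom on implied tags, no pair block, single lines, hours as a number and leaving out each pair or time.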

Additional observations from a re-analysis of the deposited data

Results flagged for a closer look

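Arnt had log2 ratios of T3 to untreated just below 0 in both 6 h pairs (-0.03 and -0.02) and above 0 in both pairs of 12 h (0.09 and 0.29) and of 24 h (0.32 and 0.08), so that every pair of 1 time moved against every pair of another. The mean at 12 h minus that at 6 h was 0.21, and this difference was not tested. The mean at 24 h minus that at 6 h was 0.22 (SE 0.22, adjusted p = 0.766 in limma), a difference within its error.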

How the results depend on the processing

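In the shared response Epas1 (3.36 to 4.46), Hif1a (0.61 to 0.73) and Egln1 (0.83 to 1) passed in 13 of 13 alternatives, with adjusted p in limma of at most 4.32e-05, 0.0276 and 0.018. Vhl passed in 1 of 13, without the C17.2a 24 h pair. Depth limits low values such as Epas1 without T3. The cause of the changes below was not tested.

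Median-ratio scaling gave 26 genes in place of 17 at 6 h, and 4 of the 8 genes lower in place of 0 in untreated cells at 24 h. In that untreated comparison a large part of all genes tested was called with and without this scaling. No filter gave 11 genes at 6 h and 30 in place of 52 at 12 h, and a pseudocount of 5 also gave 30. With no replicate block (line and time as terms in place of the pair), counts were 273 in place of 145 genes in C17.2a, 506 in place of 329 in C17.2b, 84, 133 and 265 at 6, 12 and 24 h (112 with the pair at 24 h), and 1 in place of 0 for each difference between lines or times. The genes of the list called higher were then 3 in place of 1 in C17.2a (Hif1a and Egln1 added) and 3 in place of 2 in C17.2b (Hif1a added). They were 2 at 12 h and 3 at 24 h. From the libraries of 1 line alone, C17.2a gave 12 genes and C17.2b 1086.

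Leaving out 1 pair gave 319 to 1554 genes in place of 682 for the shared response, 32 to 462 in C17.2a, 39 to 1178 in C17.2b, 0 to 2 for their difference, 0 to 682 at 6 h, 0 to 690 at 12 h, 0 to 4305 at 24 h and 0 to 3342 for 24 h minus 6 h. The list genes called higher ranged from 3 to 4 for the shared response, from 1 to 3 in each line, from 0 to 3 at 6 and 12 h and from 0 to 4 at 24 h. The highest counts came without the C17.2a 24 h pair for the shared response and each line, and without the C17.2b 24 h pair at 24 h and for 24 h minus 6 h. The lowest came without the C17.2b 12 h pair for the shared response and C17.2b, and without the C17.2a 6 h pair for C17.2a. Leaving out a time gave 404 (without 6 h) to 1047 genes in place of 902 between the untreated lines.

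Of the list's values 23 changed sign, none of them past the threshold before or after. With median-ratio scaling these were Vhl for C17.2b minus C17.2a (-0.03), Egln2 for 24 h minus 6 h (0.03) and Hif1a in untreated cells (-0.37). Without the C17.2a 24 h pair they were Hif1an in C17.2a (0.14), at 24 h (0.32) and for 24 h minus 6 h (0.15), Hif1a (0.12), Arnt (0.08) and Vhl (-0.21) for the line difference, and Vhl (0.21) and Egln2 (0.04) for 24 h minus 6 h. Without the C17.2b 6 h pair they were Arnt for the line difference (0.05), Egln2 (-0.08) and Hif1an (-0.02) at 6 h and Egln2 for 24 h minus 6 h (0.16). Without the C17.2b 24 h pair they were Arnt for the line difference (0.01) and Vhl at 24 h (-0.33), and without the C17.2a 12 h pair Egln2 at 12 h (0.07). Between the untreated lines they were Epas1 (0.12), Vhl (-0.04) and Egln2 (0.00) without 6 h, Egln3 (-0.01) without 12 h and Arnt (-0.04) without 24 h. For 24 h minus 6 h the range over omissions was Egln2 -0.21 to 0.16, Hif1an -0.76 to 0.15, Vhl -0.69 to 0.21. For the line difference the range over omissions was Arnt -0.10 to 0.08, Hif1a -0.18 to 0.12, Vhl -0.21 to 0.35. At 12 h the range over omissions was Egln2 -0.15 to 0.07. At 24 h the range over omissions was Hif1an -0.59 to 0.32, Vhl -0.33 to 0.58. At 6 h the range over omissions was Egln2 -0.08 to 0.29, Hif1an -0.02 to 0.36. In C17.2a the range over omissions was Hif1an -0.30 to 0.14. Between the untreated lines the range over omissions was Arnt -0.04 to 0.12, Egln2 -0.20 to 0.00, Egln3 -0.01 to 0.35, Epas1 -0.35 to 0.12, Vhl -0.04 to 0.34. At 5 RPM Epas1 did not pass the filter among untreated libraries and has no value there.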
